A study of Mus musculus with 4 samples.

Results

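The regions described here are stretches of DNA between genes where methylation outside CG sites was lower in the somatosensory cortex of Nsd1 conditional knockout mice. They were chosen by their measured values and positions in the authors' deposited table of differentially methylated regions: the context, both group means and the distance to genes. A region had to lie on an autosome, be listed in the CHH context (a cytosine followed by 2 bases that are A, C or T), have a lower mean level in the knockout than in the control, and have a control level below 10%. It also had to overlap no protein-coding gene and lie at most 100 kb from the nearest. The rule kept 20490 regions of the 101350 in the table, which were 20490 of the 44564 autosomal CHH regions lower in the knockout. The rest of those comprised 10548 regions inside protein-coding genes, 11839 over 100 kb from any, and 1687 with control levels of 10% or more.

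Whole-genome bisulfite sequencing was done on mice aged 2.5 months. The conditional knockout (genotype Nsd1Nex-cKO, here cKO) and the control (genotype Nsd1fl/+, which carries a floxed Nsd1 allele) had 2 libraries each. Recombination is driven from Nex (Neurod6), a gene of cortical excitatory neurons, whereas the DNA came from dissected cortex with all its cell types, so each level is an average over cells in which Nsd1 was and was not targeted. Because the table lists 1 mean per group, the spread between libraries and the read depth are unknown for every value. The labels do not say whether the libraries of a group came from separate animals.

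NSD1 is a histone methyltransferase for lysine 36 of histone H3 and makes the dimethyl mark that covers broad stretches between genes. DNMT3A, the enzyme that lays down most methylation outside CG in neurons, carries a PWWP domain that binds methylated lysine 36. Methylation outside CG accumulates in mouse neurons after birth and favours the trinucleotide CAC. In transcribed gene bodies, lysine 36 is mainly trimethylated by SETD2.

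Promoter sequences show what such a region looks like next to a gene. Of the 16457 autosomal protein-coding genes with a RefSeq promoter window (GRCm38.p6), 21, or 0.128%, had one of the 20490 regions in the 250 bases before the start. The starts used for these windows can differ from the gene ends used for distances elsewhere. The regions 91 bp from Zfp536 and 38 bp from Sst, given below, are therefore not among those counted in windows. Of the sequences below, Igf2, Olfr90, Saxo1 and Cnga3 are those with at least 50 covered bases among the 6 named genes with the largest area statistic there, and Vip was added after its values were seen because it marks a class of interneurons. Each is given 5′ to 3′ on the strand of the gene and ends at the base before the annotated start, and capitals mark the bases inside the listed region.
Igf2: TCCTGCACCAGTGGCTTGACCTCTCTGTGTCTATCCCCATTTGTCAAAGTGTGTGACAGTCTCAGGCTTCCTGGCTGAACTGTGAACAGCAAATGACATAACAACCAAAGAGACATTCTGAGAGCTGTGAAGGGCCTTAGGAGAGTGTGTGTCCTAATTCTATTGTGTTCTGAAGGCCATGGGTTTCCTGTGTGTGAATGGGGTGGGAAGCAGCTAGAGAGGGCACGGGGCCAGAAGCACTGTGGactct
Olfr90: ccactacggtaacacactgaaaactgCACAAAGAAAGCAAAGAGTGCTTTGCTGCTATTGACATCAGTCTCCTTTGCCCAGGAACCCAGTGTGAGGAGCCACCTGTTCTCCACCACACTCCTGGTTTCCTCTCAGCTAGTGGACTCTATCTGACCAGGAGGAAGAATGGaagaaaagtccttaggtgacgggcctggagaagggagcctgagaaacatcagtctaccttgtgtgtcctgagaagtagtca
Saxo1: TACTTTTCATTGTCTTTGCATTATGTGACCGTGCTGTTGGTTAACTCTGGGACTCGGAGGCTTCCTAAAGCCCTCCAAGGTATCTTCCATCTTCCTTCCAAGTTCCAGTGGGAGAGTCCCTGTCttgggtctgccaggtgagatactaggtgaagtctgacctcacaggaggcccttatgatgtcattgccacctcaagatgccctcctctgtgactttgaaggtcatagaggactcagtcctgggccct
Cnga3: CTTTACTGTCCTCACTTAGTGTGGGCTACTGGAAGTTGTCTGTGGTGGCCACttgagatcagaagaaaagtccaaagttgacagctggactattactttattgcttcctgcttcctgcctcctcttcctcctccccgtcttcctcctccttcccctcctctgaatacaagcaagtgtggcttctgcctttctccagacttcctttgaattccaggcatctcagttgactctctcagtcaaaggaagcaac
Vip: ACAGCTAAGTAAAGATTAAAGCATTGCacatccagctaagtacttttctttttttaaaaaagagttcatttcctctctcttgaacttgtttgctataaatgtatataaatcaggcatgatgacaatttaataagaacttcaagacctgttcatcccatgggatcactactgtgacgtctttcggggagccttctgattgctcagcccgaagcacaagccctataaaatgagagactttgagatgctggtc

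The region at Igf2, an imprinted insulin-like growth factor gene, spans chr7:142666822-142667085 and begins 6 bp from the gene (window chr7:142666817-142667066, minus strand). It was at 5.79% in control and 1.38% in cKO over 96 cytosines. Its 245 bases within the window hold 19 CAC trinucleotides, counted on both strands (CAC or GTG), and 1 CG. The region at Olfr90, an olfactory receptor gene, lies wholly in the window (chr17:37086318-37086460) and was at 5.76% in control and 0.970% in cKO. The reference has 55 CHH cytosines on both strands of that stretch, and the authors' deposited table lists 55. At Saxo1, a gene for a stabiliser of axonemal microtubules, the levels were 5.91% and 0.904% (chr4:86558430-86558702), and at Cnga3, a cone photoreceptor channel subunit, 4.96% and 0.812% (chr1:37217861-37218079). Krtap6-2, a hair protein gene (6.28% and 0.618%), and Aoc1, an amine oxidase gene (7.41% and 1.37%), completed the 6, with 38 and 2 covered bases. At Vip, a neuropeptide gene, the levels were 4.70% and 0.521% (chr10:5638868-5638994). Each of these 7 regions was below 1.5% in cKO.

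The promoter windows that the regions reached were poor in CG. The 22 windows of protein-coding genes that were reached held a median of 2 CG sites and at most 7, against a median of 10 over all 20085 windows of such genes. Their median GC content was 46.4% against 56.0%, and they held a median of 10 CAC trinucleotides on both strands against 8. CAC occurs in 99.9% of all windows of this length. These are descriptions of 22 windows, with no test. Across all genes, non-coding ones included, 22 regions lay wholly inside a window, and for 20 of them the listed number of cytosines came within 2 of the number of CHH cytosines in the reference on both strands.

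At the regions the rule chose, methylation in cKO was a small remainder of the control level. In the authors' deposited table the control level had a median of 5.38% (quartiles 4.46% and 6.53%) and the cKO level a median of 0.964% (quartiles 0.655% and 1.41%). The median difference was -4.33 points (quartiles -5.14 and -3.70). The cKO level was a median 18.3% of the control level (quartiles 13.8% and 23.3%), and 10748 regions, or 52.5%, were below 1% in cKO. These values describe the choice, since direction and control level were part of it. The highest cKO level was 4.67%, and the lowest control level was 2.17%.

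**Figure D1:**
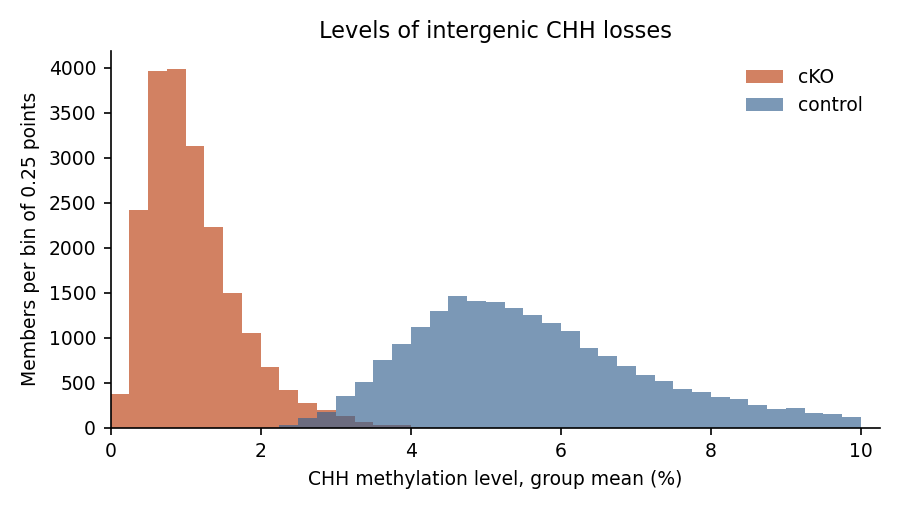
Number of regions in each bin of 0.25 points of the group mean CHH level (%), for control (blue) and cKO (orange), over the 20490 intergenic CHH losses. The cKO values pile up around their median of 0.964%, and the control values spread from 2.17% to the limit of 10% set by the rule.

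The limits of the rule cut through a continuous range. The last regions below 10% in control, near Casz1, Ptpn20 and Ppp1r14c, had cKO levels of 2.31%, 2.59% and 2.87%. The first above it, near Fam204a, Cxcl12 and Hivep1, had cKO levels of 3.02%, 4.04% and 3.88%. In all, 705 intergenic CHH losses within 100 kb had a control level of 10% or more. At the distance limit, the last region inside lay 99994 bp from A1bg (3.59% in control, 0.456% in cKO) and the first outside lay 100005 bp from Sst (4.84% and 0.886%). The smallest listed loss was 2.00 points, near Dlk2.

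The regions were short, with levels that hardly depended on the chromosome. Their median length was 127 bp (quartiles 87 and 180 bp), with a median of 46 CHH cytosines (quartiles 32 and 63) and 36.6 cytosines per 100 bp. Together they covered 2.88 Mb. By chromosome the median control level lay between 5.24% on chromosome 17 and 5.52% on chromosome 19, and the median cKO level between 0.875% on chromosome 10 and 1.0% on chromosome 1. Their density differed more, from 20.5 per Mb of intergenic space on chromosome 7 to 39.0 on chromosome 11. The CHH losses inside protein-coding genes (medians of 5.6% in control and 1.07% in cKO) and those over 100 kb from genes (5.44% and 0.968%) had levels close to these. Every region compared here was a listed loss with a control level below 10%, which limits how far such medians can differ. None of these differences was tested.

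Levels of CHH methylation in mitochondrial DNA moved in the same direction and belong beside every loss given here. The 4 CHH regions listed there, with 3967 cytosines, averaged 6.52% in control and 0.510% in cKO, and their differences had a median of -5.87 points. Of the intergenic regions, 2463, or 12%, had a larger loss than that. Bisulfite conversion rates were not used here, and the part of conversion or of mitochondrial reads in the losses was not tested.

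The region with the largest area statistic was the longest by far, and its levels were unlike those of most others. It spans chr1:24612084-24613746, 24.2 kb from the collagen gene Col19a1, with 456 cytosines at 9.95% in control and 0.620% in cKO. The next longest region had 871 bp, and no other held more than 304 cytosines. A CG region inside it was at 11.1% in control and 1.39% in cKO, where intergenic CG losses had a median control level of 76.2%. A CHG region inside it was at 17.2% and 0.880%. This stretch of mouse chromosome 1 is known to carry a nuclear copy of mitochondrial DNA, and how far mitochondrial reads enter its levels was not tested. Without this region the medians stayed at 5.38% and 0.964%.

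The other 9 of the 10 strongest regions lay near genes of various kinds. At chr1:155115076-155115722, 12.2 kb from Mr1, which presents vitamin metabolites to T cells, 259 cytosines were at 7.08% in control and 1.03% in cKO. Next to the homeobox gene Nkx2-9 (chr12:56609987-56610758, 631 bp past its end), 277 cytosines were at 5.56% and 0.937%, and an overlapping CG region was at 67.2% and 24.9%. The region 11.2 kb from Celsr1, an adhesion receptor of planar cell polarity, was at 9.15% and 0.945%. The region 69.6 kb from Nfib, a nuclear factor I gene, was at 7.16% and 0.587%.

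Near Nectin1, which encodes a cell adhesion molecule, 233 cytosines at 7.5 kb were at 6.86% in control and 0.944% in cKO. Only 91 bp before the zinc finger gene Zfp536 (chr7:37774130-37774669), 185 cytosines were at 9.26% and 0.832%, and an overlapping CG region was at 76.0% and 47.7%. The regions near Mki67 (94.0 kb away), a marker of dividing cells, near Fndc3b (56.4 kb) and near Zc3h12a (28.7 kb), an RNase that dampens inflammation, completed the set, at 5.41%, 8.68% and 4.56% in control and 0.951%, 2.08% and 0.720% in cKO. Among regions with at least 50 cytosines, the largest losses after the one near Col19a1 were near Nmu (neuromedin U, 9.73% and 0.448%), Cbfa2t3 (a corepressor, 9.88% and 0.600%), Slc35b4 (a nucleotide sugar transporter, 9.97% and 0.698%) and Itprid2 (9.76% in control and 0.551% in cKO). In each of these 4, the cKO level was below 0.7%. Choosing the largest losses under a control limit of 10% leaves little room for higher cKO levels.

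Losses between genes occurred at every distance, whereas gains were concentrated in genes. Of 21681 autosomal CHH regions that overlap no protein-coding gene and lie within 100 kb, 97.8% were lower in cKO, against 84.0% of all 53608 listed CHH regions. For CG, 20362 regions lay in the same space, and of these 99.2% were lower. The CHH losses had a density of 20.8 per Mb within 2 kb of a gene, 23.4 at 2 to 10 kb, 27.9 at 10 to 25 kb, 29.8 at 25 to 50 kb and 28.9 at 50 to 100 kb. Inside genes the density of CHH losses from control levels below 10% was 10.8 per Mb, and over 100 kb away it was 18.1. CHH gains went from 7.87 per Mb inside genes to 2.26 within 2 kb and 0.358 at 50 to 100 kb. The share of losses among these CHH regions was 57.7% inside genes, 90.2% within 2 kb and 98.8% at 50 to 100 kb.

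Outside protein-coding genes the median loss was slightly larger at greater distance, but inside them it was larger still, at -4.45 points. The median difference was -4.28 points within 2 kb, -4.31 points at 2 to 10 kb and at 10 to 25 kb, -4.35 points at 25 to 50 kb, -4.36 points at 50 to 100 kb and -4.39 points beyond. These steps are small beside the quartiles of all regions and were not tested. The median distance was 24.6 kb (quartiles 9.53 and 50.8 kb). The density within 10 kb (22.7 per Mb) was 0.786 of that at 50 to 100 kb. When all annotated genes, non-coding ones included, bounded the intergenic space, this ratio turned to 1.42. Assembly gaps and sites that cannot be mapped were not subtracted from the space.

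**Figure D2:**
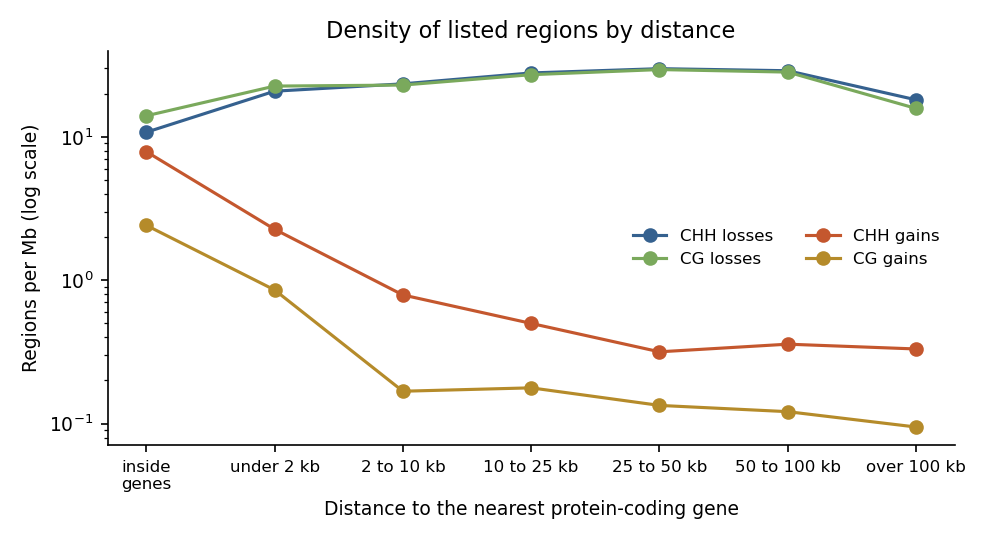
Listed autosomal regions per Mb (log scale) by distance to the nearest protein-coding gene, for CHH losses from control levels below 10% (blue), CG losses (green), CHH gains (orange) and CG gains (brown). CHH losses range from 20.8 to 29.8 per Mb between 0 and 100 kb, while CHH gains go from 7.87 per Mb inside genes to 0.358 at 50 to 100 kb.

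Close to genes, the losses lay more often before the start than past the end. The strand of the nearest gene was known for 15919 regions, and 9077 of these (57.0%) were on the start side. Within 2 kb the density was 26.2 per Mb on the start side (669 regions) and 14.0 on the end side (349 regions). At 2 to 10 kb it was 25.7 and 19.3, and at 25 to 50 kb 29.9 and 29.2. The share on the start side was 51.1% when non-coding genes also bounded the space, and the difference between sides was not tested.

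The losses came in groups. The gap from a region to the nearest other had a median of 5.0 kb (quartiles 1.27 and 17.6 kb). For 4497 regions (21.9%) another lay within 1 kb, and for 13228 (64.6%) within 10 kb, while 1333 (6.51%) were over 100 kb from any other. The densest window of 50 kb held 25 regions beside Nectin1 on chromosome 9, from 43693560 to 43733408, with 2053 cytosines. There the control levels ranged from 4.15% to 9.93% with a median of 5.49%, and the cKO levels from 0.475% to 3.39% with a median of 0.980%. These ranges did not overlap here or in the windows given next, where every region was likewise chosen as a loss. The Nectin1 window also held 9 CG losses and 0 gains in CG or CHH. Gains are rare in this space, where 97.8% of listed CHH and 99.2% of listed CG regions were lower in cKO.

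The second window, on chromosome 15 from 103072043 to 103116401, lies between the Hoxc cluster and Smug1, a DNA glycosylase gene, and held 23 regions. Of these, 9 were nearest to Hoxc4, a homeobox gene of body patterning, with medians over the window of 5.07% in control and 0.954% in cKO. Windows of 22 regions before Tcerg1l (chromosome 7, from 138401104), of 20 past Asb1 (chromosome 1, from 91575793) and of 20 past Aipl1, a photoreceptor chaperone gene (chromosome 11, from 71944073), followed. Their medians were 5.49%, 5.08% and 5.34% in control and 0.905%, 0.865% and 0.951% in cKO. Each of the 5 windows held between 2 and 9 CG losses and 0 CG or CHH gains. Most windows of 50 kb between genes would hold 0 gains. At 50 to 100 kb from genes there were 0.358 CHH and 0.121 CG gains per Mb, and within 2 kb 2.26 and 0.855.

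The number of losses per gene was uneven. Of 20560 autosomal protein-coding genes, 6471 (31.5%) were the nearest gene to at least 1 of the regions. Of these, 2628 had 1 region, 2536 had 2 to 4, 946 had 5 to 9 and 361 had 10 or more, and the last group took 24.6% of all 20490. The nearest gene is the closest by position, and no link between region and gene was tested.

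Nectin1 had the most, with 50 regions from 43642528 to 43905405 on chromosome 9 (control levels from 3.12% to 9.93%). Tle3, a Groucho-family corepressor gene, had 36, with medians of 6.01% in control and 1.5% in cKO. Tmem132e had 33, Tcerg1l 32, Wscd1 30 and Aipl1 29. St8sia2, which makes polysialic acid on neural adhesion molecules, had 27. Grik3, a kainate receptor subunit, Nmur2, a neuromedin U receptor, and Sox2, a transcription factor of neural progenitors, had 26 each. For these 10 genes the median control levels lay between 4.90% (Sox2) and 6.01% (Tle3), and the median cKO levels between 0.830% (Tmem132e) and 1.5% (Tle3).

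The sides differed from gene to gene. Of the 26 regions at Grik3, 20 lay before its start, all 29 at Aipl1 lay past its end, and all 23 at the homeobox gene Lhx1 lay before its start. At Sox2 they were split into 12 and 14. Counted per 100 kb of flank among genes with at least 50 kb, a ranking chosen after the values were seen, Smug1 (33.1), Aipl1 (29.0), Hoxc4 (25.6) and Nectin1 (25) came first.

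**Figure D3:**
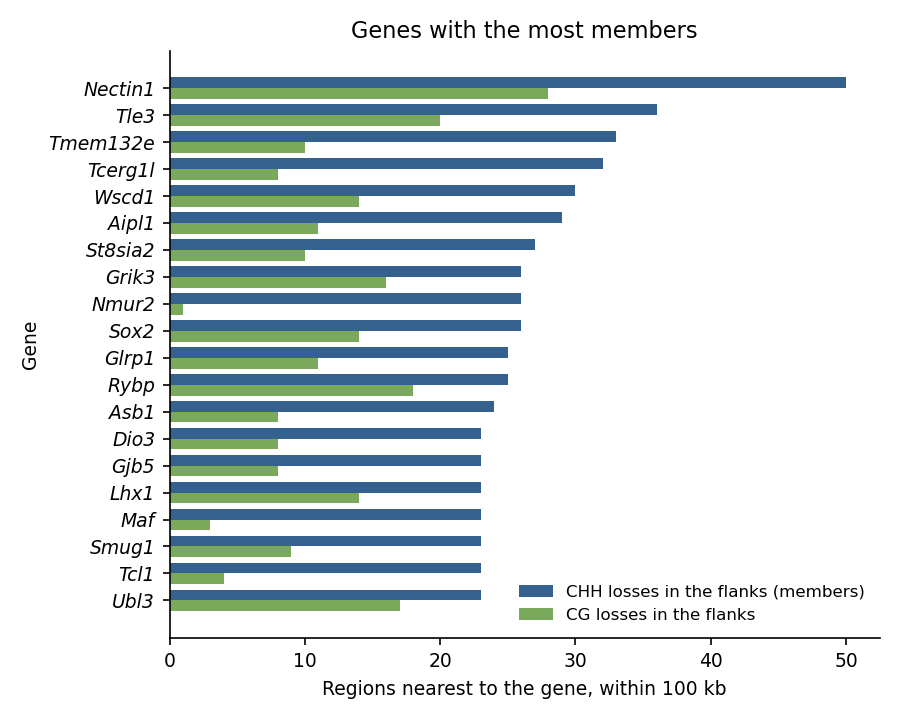
Number of CHH losses (blue) and CG losses (green) within 100 kb that are nearest to each of 20 genes among those with the most CHH losses. Nectin1 leads with 50 CHH and 28 CG losses, and Nmur2 has 26 CHH losses but 1 CG loss.

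Transcription factors of other lineages were bordered by such losses more often than genes in general. Of 80 developmental transcription factors of other lineages with a position, 72 (90%) had at least 1 region, against 31.5% of all genes, at 69.6 regions per Mb of flank against 26.9. Twist2, which acts in mesenchyme, had 22, of which 21 lay before its start (medians of 4.99% and 0.929%). Irx3 and Pax7, a patterning and a muscle stem cell factor, had 20 each, with medians of 6.22% and 5.58% in control and 1.14% and 0.976% in cKO. In this list 54 genes (67.5%) had a CG loss in the flank and 1 (1.25%) a CG gain, against 30.5% and 0.730% of all genes. No test was made of this or any other list, since earlier results of these data were known when the lists were written. Flanks of these factors are also longer than those of genes in general, with medians of 95.1 kb and 19.0 kb.

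Interneuron markers, genes of cells that the Nex driver does not target, followed closely. Of 32 markers 27 (84.4%) had a region, against 31.5% of all genes, at 67.0 per Mb of flank. The flanks of these markers are also longer, with a median of 102.2 kb against 19.0 kb for all genes. Maf, a transcription factor of interneurons from the medial ganglionic eminence, had 23 (medians of 6.87% and 1.23%). Npy, a neuropeptide gene, had 21 (5.11% and 0.864%), and Prox1, a homeobox gene of other interneurons, had 20 (6.15% and 1.12%). Sst, the somatostatin gene, had 15, the closest 38 bp from the gene on its start side (chr16:23891380-23891562), at 5.47% in control and 0.827% in cKO. The promoter sequence of Vip shown above holds part of 1 of the regions of this list.

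Markers of non-neuronal cells, pooled by list, had denser flanks than genes in general as well. The densities were 66.3 per Mb for 17 oligodendrocyte lineage markers, 66.0 for 17 microglia markers, 53.2 for 20 endothelial and mural markers and 45.8 for 16 astrocyte markers. Regions were found at 9 (52.9%), 13 (76.5%), 15 (75%) and 12 (75%) of them, against 31.5% of all genes. Median flanks were 33.3, 22.5, 48.0 and 29.2 kb, against 19.0 kb for all genes. Among losses above the mitochondrial median, the density relative to all genes went from 2.46 to 1.16 for the oligodendrocyte lineage list and from 1.70 to 1.15 for the astrocyte list, which then held 3 and 4 regions. Irf8 and Sall1, transcription factors of microglia, had 18 each (median control levels of 5.88% and 5.80%, median cKO levels of 1.02% and 1.06%). These make up most of the 56 regions of the microglia list, and the markers Aif1, Tmem119 and Trem2 had none. Slc1a3, an astrocyte glutamate transporter gene, had 16, Pdgfra, a marker of oligodendrocyte precursors, 12, and Cldn5, a tight junction gene of brain endothelium, 12. Of the 53 regions of the oligodendrocyte lineage list, 11 were at Olig1, and the markers Cnp, Mag, Mog and Myrf had none. The share of each cell type in the dissected cortex was not measured here, and its part in these values was not tested.

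Genes of excitatory neuron identity, pooled by list, were near the level of all genes by density. The densities were 29.5 per Mb for 16 upper layer genes and 26.9 for 19 deep layer genes. Of these, 10 (62.5%) and 13 (68.4%) had a region, against 31.5% of all genes. Flanks in both lists are longer, with medians of 116.4 and 137.4 kb against 19.0 kb for all genes. Among losses above the mitochondrial median, with 4 regions in each list, the density relative to all genes went from 1.10 to 0.663 for upper layer genes and from 0.998 to 0.583 for deep layer genes. Lhx2, a homeobox gene of cortical progenitors, had 20 regions (5.61% and 1.0%), Cux1 13 and Bcl11b, a factor of subcerebral projection neurons, 11. Lhx2 and Cux1 thus held most of the 55 upper layer regions, and the pooled density of that list rests largely on them. The median per gene was 1 region in the upper layer list and 2 in the deep layer list. Activity-regulated genes had 25.9 per Mb, with regions at 18 of 30 (60%), led by Klf4 with 12, Nptx2 with 11 and Fos with 6. Their median flank was 97.0 kb.

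Genes of the synapse and of excitability had fewer regions per Mb of flank than genes in general, although a larger share of them had at least 1. The densities were 15.9 per Mb for 48 synaptic adhesion genes, 14.9 for 18 classical cadherins, 21.4 for 42 voltage-gated channel genes and 20.4 for 37 glutamate and GABA receptor genes. Regions were found at 25 (52.1%), 11 (61.1%), 20 (47.6%) and 18 (48.6%) of them, against 31.5% of all genes. Flanks in these lists are longer, with medians of 200, 200, 55.3 and 112.4 kb against 19.0 kb for all genes. Cadm1, an adhesion gene, with 21 regions, Cdh22 with 15, Grm4, a metabotropic glutamate receptor gene, with 18 and Kcnd3, a potassium channel gene, with 11 stood above most of their lists. Axon guidance genes had 28.6 per Mb, with regions at 28 of 32 (87.5%), among them Plxna1 and Slit3 with 13 each. Their median flank of 132.8 kb is also longer than that of all genes.

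Ligand genes of the Wnt, BMP and FGF families had 54.0 regions per Mb of flank, at 25 of 37 genes (67.6%). Their median flank was 49.0 kb, against 19.0 kb for all genes. Bmp4 had 18 (6.24% and 0.954%), Wnt4 16 and Bmp7 14. Polycomb genes had 51.2 per Mb, but at 9 of 25 genes (36%), and 16 of their 42 regions were at Aebp2. Genes of H3K36 methylation had 35.3 per Mb, at 5 of 17 (29.4%), with 10 regions before Smyd2 and 0 beside Nsd1 itself. Genes that write, erase or read DNA methylation had 20.9 per Mb, at 6 of 22 (27.3%), with 12 regions at Gadd45g. Housekeeping genes had 31.7 per Mb, at 7 of 26 (26.9%), with short flanks (median 6.02 kb). Apart from the ligand genes, the shares in these lists were near the 31.5% of all genes.

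Gene families in tandem arrays, chosen after their values were seen, differed widely. The 1103 olfactory receptor genes had 133 regions, or 5.02 per Mb of flank, the 351 vomeronasal receptor genes 11, or 0.631 per Mb, and the 71 defensin genes 8, or 4.25 per Mb. The 388 Zfp zinc finger genes had 266, or 19.5 per Mb. The 56 keratin-associated protein genes had 48, or 46.9 per Mb, and the 39 Hox genes 33, or 58.4 per Mb, both above the 26.9 of all genes. Yet a region was found at only 10 (25.6%) of the Hox genes, and 15 of their 33 regions were at Hoxc4. The share was 33.9% for keratin-associated protein genes, 18.0% for Zfp genes and 9.52% for olfactory receptor genes. For defensin genes it was 7.04% and for vomeronasal receptor genes 2.85%, against 31.5% of all genes. Reads from near-identical copies may not map uniquely in such arrays, and mapping was not measured here.

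**Figure D4:**
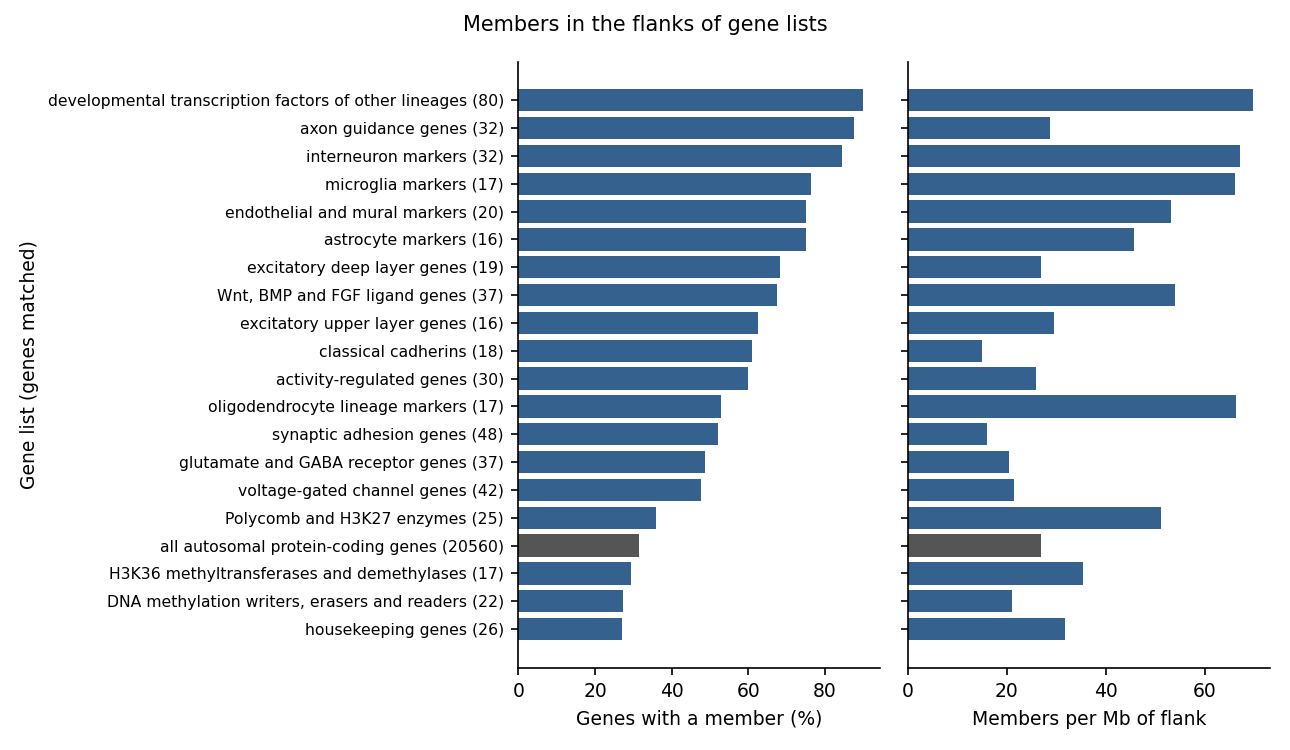
For each gene list, with the number of genes matched, the share of genes that are nearest to at least 1 region (left, %) and the regions per Mb of intergenic flank (right), with all autosomal protein-coding genes in grey. Developmental transcription factors reach 90% and 69.6 per Mb, and all genes 31.5% and 26.9 per Mb.

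Near many of the regions a CG loss was listed, and hardly ever a CG gain. Few CG gains were listed to begin with. Of the 20362 autosomal CG regions outside protein-coding genes and within 100 kb, 99.2% were lower in cKO. Of the 20490 regions, 1085 (5.30%, 95% exact interval 4.99% to 5.61%) overlapped a CG loss in the authors' deposited table and 4410 (21.5%, interval 21.0% to 22.1%) had 1 within 1 kb. A CG gain lay within 1 kb of 2 regions, a CHH gain of 3, and a CHG loss (a cytosine followed by A, C or T and then G) of 113. Seen from the other side, 21.9% of the 20203 intergenic CG losses had a CHH loss of this set within 1 kb (interval 21.4% to 22.5%), against 2 of 159 intergenic CG gains (1.26%, interval 0.153% to 4.47%) and 2 of 486 CHH gains (0.412%, interval 0.0499% to 1.48%). These intervals cover counting error alone, and neighbouring regions come from the same libraries. For CHH losses inside protein-coding genes the share with a CG loss within 1 kb was 24.2%, and for those over 100 kb away 19.5%.

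Where both contexts were listed, the CG change was large and the CHH change close to that elsewhere. The 1052 intergenic CG losses that overlapped a CHH loss had medians of 78.7% in control and 41.3% in cKO, a difference of -35.3 points. The 11516 CG losses over 5 kb from any had medians of 76.2% and 43.1%, a difference of -30.8 points. The overlapping CG regions were also longer, with a median of 230.5 bp against 118 bp, and longer regions are more likely to overlap others. The CHH losses that overlapped a CG loss had a median difference of -4.26 points, and those with no CG loss within 5 kb -4.30 points. Across the 1085 overlapping pairs the CHH and CG differences had a Spearman correlation of -0.07 and the control levels of 0.28, which describe pairs that share libraries and position.

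**Figure D5:**
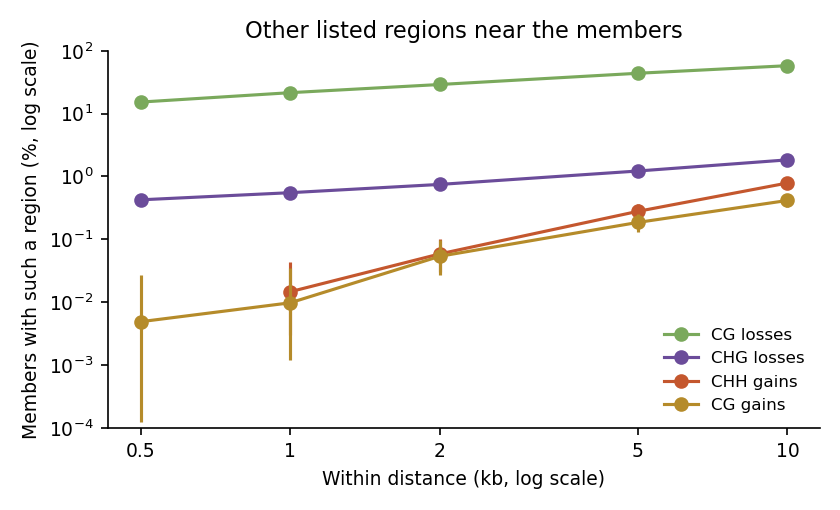
Share of the 20490 regions (%, log scale) with another listed region of each kind within 0.5 to 10 kb (log scale), with vertical lines for 95% exact intervals over regions. CG losses were within 1 kb of 21.5% and CG gains within 1 kb of 0.00976%.

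Flanks were densest beside genes that themselves carried CHH losses. The 2721 genes with CHH losses and no CHH gain in the body had 46.5 regions per Mb of flank. The 506 genes with both had 34.2 per Mb, the 2676 with CHH gains only 25.9, and the 14657 with no CHH region in the body 20.9. At least 1 region was found at 60.3%, 64.6%, 40.8% and 23.3% of these genes, in that order, against 31.5% of all genes. Their median flanks were 27.1, 66.3, 27.3 and 15.1 kb, and their median lengths 39.2, 208.0, 66.0 and 11.0 kb. Twist2 is of the first kind, with 11 CHH losses in its body and 22 in its flanks, and Chd7, a chromatin remodeller gene, with 20 and 22. Cadm1 had 3 CHH gains and 1 loss in its body beside 21 losses in its flanks. Of the 361 genes with 10 or more regions, 161 (44.6%) had a CHH loss in the body, 89 (24.7%) a CHH gain and 139 neither, against 15.7% and 15.5% of all genes with a loss and a gain. A CG loss in the flank was listed for 351 (97.2%) and a CG gain for 10 (2.77%), against 30.5% and 0.730% of all genes. Losses and gains were thus both listed more often than for genes in general. These 361 genes were chosen by their flanks and have longer ones, with a median of 120.3 kb against 19.0 kb for all genes.

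Some of the regions lay in non-coding genes, which the rule did not consider. A non-coding gene was overlapped by 3582 regions (17.5%), a long non-coding RNA gene by 3382. Among those with a given name, Sox2ot, which spans Sox2, held 21 (medians of 4.88% and 0.827%). Otx2os1 beside the homeobox gene Otx2 held 9 (6.13% and 1.0%), Irx3os 8 (5.50% and 1.25%) and Sox1ot 7 (6.38% and 1.64%). These genes lie beside transcription factors, and they were named after their counts were seen. Others with at least 6 regions do not: a predicted gene near Fndc1 and Tagap held 14, and Banf2os and Tcrb held 6 each. The share of intergenic space that non-coding genes cover was not measured.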

How the data were processed

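The 2 cKO and 2 control libraries were made, per the labels' protocols, from CTAB-extracted DNA that was fragmented, converted with bisulfite and then amplified. CASAVA, Bowtie2 and the build mm10 are named in the submitters' processing notes. For the region caller, its thresholds and how it used replicates, the record is: not given in the sources used here. The authors deposited mean methylation levels per group as a fraction from 0 to 1, printed here as percent. Their area statistic, a score deposited per region, was used only to rank or filter. Per the file headers, number of cytosines, length and context are also theirs. The table holds called regions only and no values per library, so depth is unknown and no test between groups could be made.

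Gene positions and sequences are RefSeq's, on GRCm38.p6 (the assembly behind mm10). Genes in the first 3 Mb of a chromosome were left out, leaving 21792 protein-coding genes. Distance runs between closest ends, with ties going to the shorter gene. Strand was known for 16457 of the 20560 autosomal genes. Densities divide counts by the space between the first and last listed region of a chromosome, and flank is the intergenic space within 100 kb that is nearest to a gene. The 19 lists hold 560 entries, of which 551 matched, and a gene can be in more than 1. Predicted models (Gm with a number, or ending in Rik) were not named. Named were the 10 regions with the largest area statistic, the 5 with the greatest difference among those of 50 cytosines or more, the 10 genes with the most regions (with ties), of which 1 is not reported here, the 5 densest windows of 50 kb and up to 3 genes per list. Members and lists were chosen with earlier results of these data known. Sst, Lhx1, Chd7, the non-coding genes and the gene families were chosen after their values were seen. Intervals are exact Clopper-Pearson at 95%. Distances were tested on simulated data. Python 3.11.15, pandas 2.3.3 and SciPy 1.17.1 were used.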

Additional observations from a re-analysis of the deposited data

How the results depend on the processing

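No paired analysis was possible because the deposited table holds group means and no values per library, and for the same reason no replicate could be left out. Of 57 recomputed values, 29 stayed within the 95% interval of the reported value (for counts, within 1.5 times). With a control limit of 8%, the median control level was 5.22%, the cKO level 0.916% and the difference -4.22 points. With a loss of at least 4 points, 12892 regions were left, at 6.17% and 1.20%, a difference of -4.88 points, and 22.2% had a CG loss within 1 kb. Above the median area statistic of CHH regions there were 10495, at 5.80% and 0.990% (-4.71 points), and 24.4% had such a CG loss. With at least 50 cytosines there were 9202, at 5.82% and 0.992% (-4.72 points), and 25.4% had a CG loss. With losses above the mitochondrial median, a filter chosen after seeing the data, there were 2463, at 8.27% and 1.47% (-6.51 points), and the density within 10 kb was 0.728 of that at 50 to 100 kb. With all annotated genes as bounds, 20.9% had a CG loss within 1 kb, 51.1% were on the start side, and the density ratio turned to 1.42, so the order of near and far depends on the gene set. The share with a CG loss was 5.30% for overlap and 43.8% within 5 kb. Among regions above the mitochondrial median, flank density relative to all genes was 2.62 for developmental transcription factors (2.59 before), 3.28 for interneuron markers (2.49), 1.82 for microglia markers (2.45), 1.16 for oligodendrocyte lineage markers (2.46) and 1.15 for astrocyte markers (1.70). It was 2.62 for housekeeping genes (1.18) and 3.01 for Polycomb genes (1.90), and 0.637 for axon guidance genes (1.06), 0.546 for H3K36 genes (1.31) and 0 for DNA methylation genes (0.778). With few regions left per list, the order of the lists depends on this filter, and the cause was not tested. Depth is unknown, so no limit from coverage could be given.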
